A study of Mus musculus with 4 samples.

Results

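The transcripts of 10 subunits of the cohesin and condensin complexes were compared between serum and 2i mouse embryonic stem cells (ESCs) sorted in G1-phase. The genes were taken by symbol through their Ensembl identifiers, and all 10 were found among the 14533 genes of the deposited table. They comprise 5 cohesin genes (Smc1a, Smc3, Rad21, Stag1 and Stag2) and 5 condensin genes (Smc2, Smc4, Ncapd2, Ncapg and Ncaph). All 10 passed the filter on low values by a wide margin in both conditions, the lowest value of any of them in a library being 375.4 normalized counts for Ncaph.

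Both groups were mouse ESCs adapted for more than 20 days to their medium, with leukemia inhibitory factor (LIF) in both media. Serum ESCs grew with fetal calf serum. 2i ESCs grew in the defined, serum-free Ndiff medium with CHIR99021, which inhibits the kinase GSK3, and PD0325901, which blocks the ERK pathway at MEK. There were 2 libraries of ribosomal RNA-depleted total RNA per condition and 4 in all. The sample labels place the cells in late G1-phase and the series text in early G1-phase, so the groups rest on the labels, which name neither genotype nor cell line. The replicates are described as biological without naming separate cultures, so the p-values measure the spread between these libraries, which may in part be technical.

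Cohesin and condensin are ring-shaped complexes built on a pair of SMC ATPases closed by a kleisin subunit. Cohesin (Smc1a, Smc3 and the kleisin Rad21, with either Stag1 or Stag2) holds sister chromatids together from DNA replication to anaphase and folds interphase chromatin into loops. Condensin I (Smc2, Smc4 and the kleisin Ncaph, with Ncapd2 and Ncapg) compacts chromosomes in mitosis, and condensin II uses the same SMC pair with its own kleisin and accessory subunits.

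The libraries differed in content as well as in condition. They held between 18939401 and 26570098 reads, and the protein-coding share of reads was 46.9% and 76.3% in serum replicates 1 and 2, compared with 57.8% and 66.3% in the 2i libraries in the same order. The 10 genes with the most reads took 50.6% of serum replicate 1 and 17.5% of serum replicate 2. All 10 ESC markers examined were present in every library, with summed levels of 60873 and 85300 normalized counts in serum, compared with 73315 and 93855 in 2i. Of 7 markers of primitive endoderm, 4 were in the table, with sums of 72.0 and 108.9 in serum, compared with 332.2 and 256.1 in 2i, and Sox7, Foxa2 and Dab2 were not listed. Of 8 fibroblast markers, 3 were in the table, with sums from 200.8 to 288.6 in the 4 libraries, and Col1a2, Col3a1, Twist2, Lum and Dcn were not listed. The primitive endoderm sums were thus higher in 2i, at levels far under those of the ESC markers. Gata4, Gata6 and Sox17 had higher means in 2i, while Pdgfra had means of 44.4 in serum and 43.7 in 2i. Whether primitive endoderm cells had a part in the values of the 10 subunits was not tested.

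All 10 transcripts had higher mean log2 levels in serum than in 2i ESCs, and none of these differences passed the test. The log2 fold changes (serum over 2i) ran from 0.46 for Ncaph to 1.45 for Smc2, with a median of 0.89, against 0.0047 for all 13005 genes tested. The median was 0.89 for the cohesin genes and 0.90 for the condensin genes. A log2 fold change above 0 was found for 10 of 10 genes, and for 50.3% of all genes tested. It was above 1, which is 2-fold, for 4 of 10 genes (Smc3, Rad21, Smc2 and Ncapg), and for 9.89% of all genes.

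With limma, 0 of the 10 were called at an adjusted p-value under 0.05 and 2-fold, where 0.0% of all genes were called higher in serum and 0.0154% higher in 2i. At an unadjusted p-value under 0.05, limma gave 3 of 10 (Smc3, Smc2 and Ncapg), all higher in serum, where 2.97% of all genes were higher in serum and 3.0% higher in 2i. DESeq2 on the whole reads called 0 of the 10 while calling 0.592% of all genes higher in serum and 1.35% higher in 2i, with 5 of the 10 at an unadjusted p-value under 0.05. The lowest adjusted p-value of the 10 with DESeq2 was 0.150, for Ncapg. With edgeR on the same reads, 0 were called and 0 had an unadjusted p-value under 0.05. The shares of all genes at that unadjusted cutoff were not counted for DESeq2 or edgeR. The limma shares are no background for those counts. The 10 genes share libraries and are not independent of each other, so no test was made over the list. In bulk RNA, fewer cells with a transcript and less transcript per cell cannot be told apart.

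**Figure D1:**
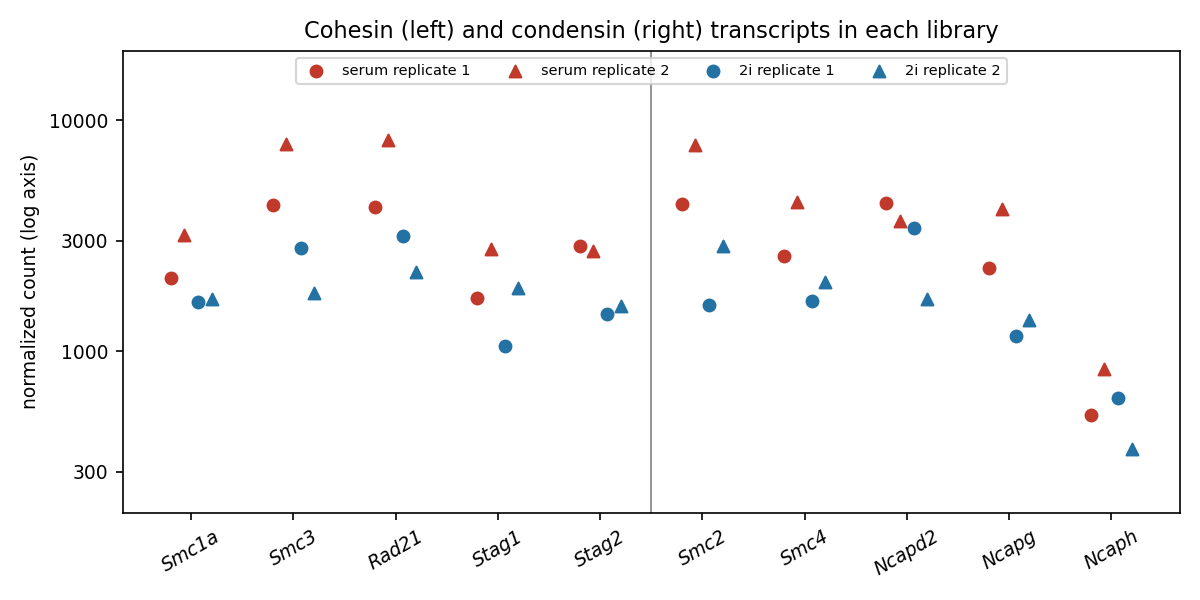
Normalized count (log axis) of the 5 cohesin genes, left, and the 5 condensin genes, right, in serum (red) and 2i (blue); circles are replicate 1 and triangles replicate 2. Both serum libraries lie above both 2i libraries for 8 genes, and Stag1 and Ncaph overlap.

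The SMC subunits of cohesin, the ATPases that form the arms of the ring, differed in how far apart the conditions lay. Smc3 (ENSMUSG00000024974, mm9 chr19:53674886-53720323, plus strand) had 4303 and 7907 normalized counts in serum replicates 1 and 2, compared with 2798 and 1792 in the 2i libraries in the same order. Every serum value was above every 2i value. Its log2 fold change was 1.38 (SE 0.53, 95% confidence interval 0.10 to 2.66), a 2.60-fold ratio, with an adjusted p-value of 0.753 in limma. Smc1a (ENSMUSG00000041133, mm9 chrX:148450971-148497237, plus strand) had 2075 and 3192 in serum, compared with 1637 and 1682 in 2i. Its 2i replicates were nearly equal and its serum replicates were not. The log2 fold change was 0.63 (SE 0.45, interval -0.46 to 1.73; limma, adjusted p-value 0.763). The partner ratio of Smc3 to Smc1a per exon length was 2.16 and 2.58 in serum, compared with 1.78 and 1.11 in 2i.

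Rad21, the kleisin that closes the cohesin ring and is cut by separase at anaphase, had the highest level per length of the 10 genes in each of the 4 libraries. Rad21 (ENSMUSG00000022314, mm9 chr15:51794151-51823306, minus strand) had 4227 and 8252 normalized counts in serum, compared with 3168 and 2194 in 2i. Its groups did not overlap, and the log2 fold change was 1.16 (SE 0.54, interval -0.13 to 2.46; limma, adjusted p-value 0.753).

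The alternative cohesin subunits Stag1 and Stag2, which bind Rad21 and help place cohesin on chromatin, differed from each other in how steady the replicates were. Stag2 (ENSMUSG00000025862, mm9 chrX:39502494-39630362, plus strand) had 2856 and 2714 in serum, compared with 1445 and 1569 in 2i, so that replicates agreed closely in both conditions. Its log2 fold change was 0.89 (SE 0.42, interval -0.13 to 1.90; limma, adjusted p-value 0.753). Stag1 (ENSMUSG00000037286, mm9 chr9:100498217-100858964, plus strand) had 1695 and 2763 in serum, compared with 1058 and 1875 in 2i. Serum replicate 1 lay under 2i replicate 2, and the log2 fold change of 0.62 (SE 0.51, interval -0.62 to 1.86; limma, adjusted p-value 0.778) was smaller than the difference between its 2i replicates. Of the Stag1 and Stag2 level per exon length, Stag1 made up 32.3% and 45.1% in serum, compared with 37.1% and 49.1% in 2i. The share was higher in replicate 2 than in replicate 1 in both conditions, and the conditions overlapped. Its size depends on the length used. With the longest annotated transcript, Stag1 was above Stag2 in replicate 2 of both conditions. Per kilobase it had 446.7 against 439.8 in serum, and 303.1 against 254.3 in 2i.

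The condensin SMC pair, shared by condensin I and II, followed the same order of conditions. Smc2 (ENSMUSG00000028312, mm9 chr4:52452115-52501237, plus strand) had 4322 and 7828 normalized counts in serum, compared with 1588 and 2856 in 2i. It had the largest fold change of the 10, 1.45 on the log2 scale (SE 0.55, interval 0.12 to 2.77), or 2.73-fold, with a limma adjusted p-value of 0.753. Smc4 (ENSMUSG00000034349, mm9 chr3:68808660-68838545, plus strand) had 2582 and 4428 in serum, compared with 1646 and 1986 in 2i. The log2 fold change of Smc4 was 0.90 (SE 0.48, interval -0.26 to 2.06; limma, adjusted p-value 0.753). Neither gene's conditions overlapped. Within libraries, the ratio of Smc2 to Smc4 per length was 1.51 and 1.59 in serum, compared with 0.869 and 1.30 in 2i. The lower 2i ratio came from 2i replicate 1, the library with the lowest Smc2 value.

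The accessory and kleisin subunits of condensin I spread over the widest range. Ncapg (ENSMUSG00000015880, mm9 chr5:46061161-46091783, plus strand), a HEAT-repeat subunit, had 2298 and 4139 in serum, compared with 1162 and 1358 in 2i. These groups did not overlap, and the log2 fold change was 1.30 (SE 0.48, interval 0.13 to 2.46; limma, adjusted p-value 0.753). Exons of Lcorl on the opposite strand overlap 942 bases of Ncapg, 13.3% of its exon bases, and 81.2% of the 43-base words of Ncapg transcripts were in no other gene. The strand setting of the counting is not given in the sources used here, so reads from that overlap cannot be assigned. Lcorl, named for that overlap, had 446.2 and 480.2 normalized counts in serum, compared with 405.9 and 198.9 in 2i, well under Ncapg. For the other 9 genes all such words were their own.

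Ncapd2 (ENSMUSG00000038252, mm9 chr6:125118027-125141613, minus strand), the other HEAT-repeat subunit, had 4392 and 3669 in serum, compared with 3431 and 1687 in 2i. The lower serum value was close to the higher 2i value, and the log2 fold change was 0.74 (SE 0.52, interval -0.52 to 2.00; limma, adjusted p-value 0.763). Ncaph (ENSMUSG00000034906, mm9 chr2:126929545-126959690, minus strand), the condensin I kleisin, had 531.3 and 834 in serum, compared with 625 and 375.4 in 2i. It had the lowest counts of the 10, its conditions overlapped, and its log2 fold change was 0.46 (SE 0.50, interval -0.75 to 1.67; limma, adjusted p-value 0.836). The difference between the fold changes of Rad21 and Ncaph was not tested, and their intervals overlap. Rad21 exceeded Ncaph per length 9.04-fold and 11.2-fold in serum, compared with 5.76-fold and 6.64-fold in 2i. With the length of the longest annotated transcript the ratios were 5.95 and 7.40 in serum, compared with 3.79 and 4.37 in 2i.

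**Figure D2:**
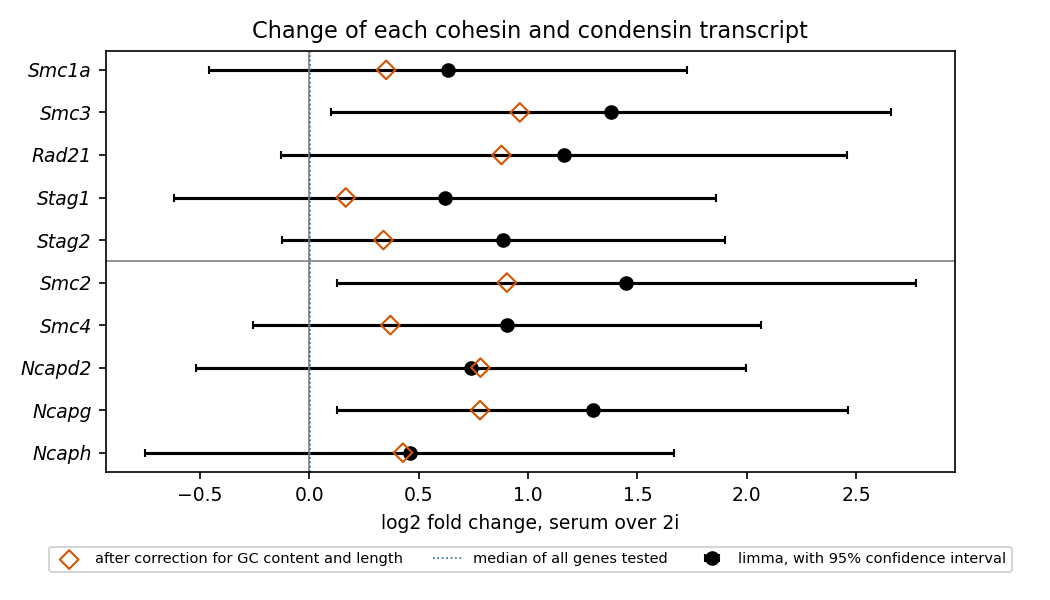
Log2 fold change (serum over 2i) of each gene from limma with its 95% confidence interval (black) and after correction for GC content and transcript length (diamonds); the dotted line is the median of all genes tested. All 10 points lie right of 0, and the intervals of Smc3, Smc2 and Ncapg alone stay above 0.

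Both serum libraries were above both 2i libraries for 8 of 10 genes, as for 20.5% of all genes tested, and below both for 0 of 10, as for 19.4% of all genes. Stag1 and Ncaph were the exceptions. The size of the difference depended on which libraries were set against each other. The median over the 10 genes was 0.63 for serum replicate 1 over 2i replicate 1 and 0.68 for serum replicate 1 over 2i replicate 2. Against the same 2i libraries, serum replicate 2 gave 1.38 and 1.15. Serum replicate 2 was the highest library for 8 genes and exceeded serum replicate 1 by a median of 0.74. For comparison, it was the highest library for 30.3% of all genes tested. Without serum replicate 2, 1 gene (Smc2) stayed above 2-fold, and 5 did without any other single library. For 3 of the 10, the largest difference between replicates exceeded the log2 fold change, and the share of all genes for which this held was not counted.

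GC content and length also moved with the result. The combined length of the exons was above the median of all genes tested (3548 bases) for all 10. The GC content of the transcript was below the median of 50.3% for 9 of 10. The correction used GC content and the length of the longest protein-coding transcript, not the combined length of the exons. After it, the log2 fold changes ran from 0.17 for Stag1 to 0.96 for Smc3, all 10 still above 0 and 0 above 1. The shares of all corrected genes above 0 and above 1 were not counted. Serum lay wholly above 2i for 6 of 10 genes, and for 20.6% of all corrected genes. The cohesin median was 0.35 after the correction, against 0.89 without it, and the condensin median was 0.78, against 0.90. The 10 genes took 0.235% and 0.326% of the protein-coding reads in serum, compared with 0.143% and 0.132% in 2i, a share that does not depend on how the libraries were scaled.

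**Figure D3:**
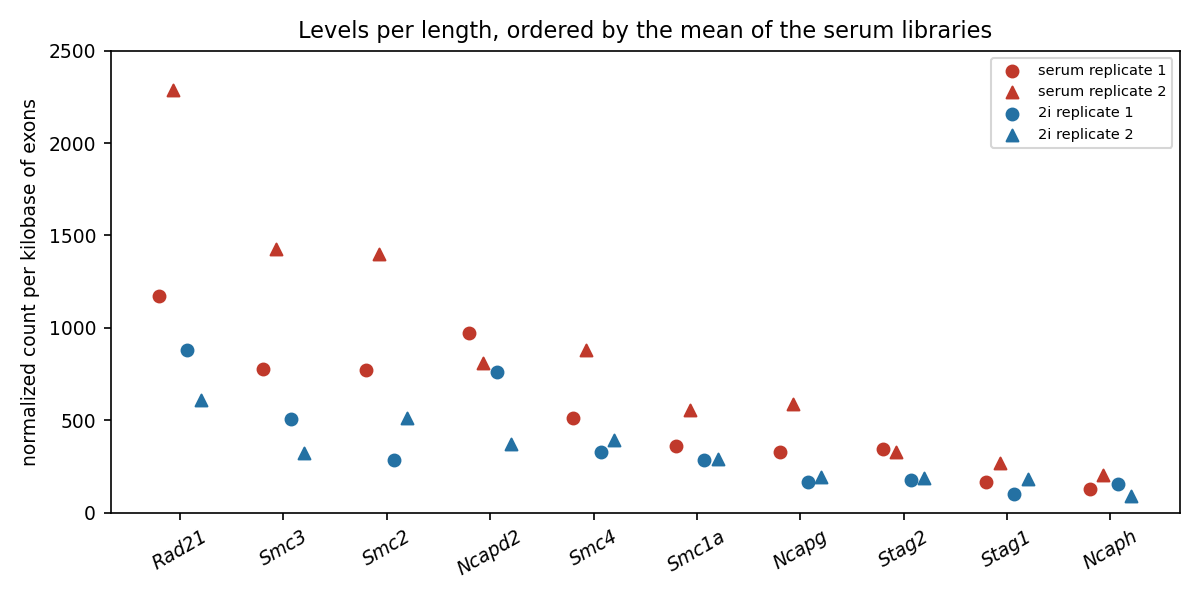
Normalized count per kilobase of exons for each gene, ordered by the serum mean, in serum (red) and 2i (blue), with circles for replicate 1 and triangles for replicate 2. Rad21 leads in all 4 libraries and Ncaph is last by the mean of both conditions.

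Set per length of exons, the transcript levels were far from equal among genes whose proteins assemble together. These are RNA levels, and the amounts of the proteins were not measured here. In serum the mean order was Rad21, Smc3, Smc2, Ncapd2, Smc4, Smc1a, Ncapg, Stag2, Stag1 and Ncaph, from 1731 ± 790 to 167 ± 52.3 normalized counts per kilobase (SD, n = 2). In 2i it was Rad21, Ncapd2, Smc3, Smc2, Smc4, Smc1a, Stag2, Ncapg, Stag1 and Ncaph, from 744 ± 191 to 122 ± 43.1. Most neighbours in these orders overlapped between libraries. Apart were Stag2 over Stag1 in serum, and in 2i Smc4 over Smc1a and Smc1a over Stag2. Stag2 and Stag1 overlapped in serum with the longest annotated transcript, at 462.9 and 439.8 per kilobase against 274.0 and 446.7. The order of the middle and lower genes depends on the transcript length used. With the longest annotated transcript, Ncapg moved from rank 7 to 6 in serum and from 8 to 7 in 2i, since its mean in serum was then 810 instead of 456. The mean log2 count of the condensin genes minus that of the cohesin genes, a difference in which the lengths are the same in every library, was -0.32 and -0.37 in serum, compared with -0.35 and -0.40 in 2i, and so the conditions overlapped.

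Genes that act on or beside the complexes were examined in lists, and limma called 0 genes in each of them. DESeq2 on the whole reads, with the same thresholds, called 6 genes of these lists, and edgeR called 0. Of 14 genes for loading, acetylation, release and cleavage of cohesin, 11 had higher means in serum, with a median log2 fold change of 0.95. Sgol2, which shields centromeric cohesin, was the highest at 1.66, and the securin gene Pttg1 the lowest at -0.53. At an unadjusted p-value under 0.05 were Sgol2, the acetyltransferase gene Esco2 (1.35) and the separase gene Espl1 (1.39). Only 52.0% of the 43-base words of Sgol2 were its own. Of the 3 subunits particular to condensin II, Ncapg2 had 1720 and 2968 in serum, compared with 700.7 and 660.6 in 2i (log2 fold change 1.73; limma, adjusted p-value 0.753; DESeq2, adjusted p-value 0.0199). The kleisin gene Ncaph2 was at -0.05, and at 0.12 after the correction for GC content and length; 73.4% of its words were its own.

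The lowest value in these lists was in meiotic cohesin. Rec8, the meiotic kleisin, had 266.1 and 175.0 normalized counts in serum, compared with 683.1 and 745.9 in 2i (log2 fold change -1.72; limma, adjusted p-value 0.753; DESeq2, adjusted p-value 0.0398). It was the 1 gene of 3 tested in that list with an unadjusted p-value under 0.05, and the 1 gene called by DESeq2, while Smc1b was at 0.72 and the list median was 0.51. Rad21, its mitotic counterpart, thus lay on the serum side and Rec8 on the 2i side.

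Of 7 genes tested of the Smc5-Smc6 complex and Smchd1, 5 had higher means in serum (median 0.29), from Ndnl2 at -0.40 to Smc6 at 1.18, the single gene at an unadjusted p-value under 0.05. Of 6 partners on mitotic chromosomes, 5 did (median 0.73). Mki67, which coats mitotic chromosomes, had 4047 and 6127 in serum, compared with 2075 and 426.8 in 2i (log2 fold change 2.40). That value rests in part on 2i replicate 2, and was 1.26 without it. Kif4 (1.28) was the other at an unadjusted p-value under 0.05, with 85.1% own words, and Akap8l was the lowest at -0.65.

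Genes for mitosis itself had a higher median than the 10 subunits. Of 13 mitotic genes, 12 had higher means in serum, with a median of 1.61, and 9 had an unadjusted p-value under 0.05 in limma: Aurka, Plk1, Bub1, Bub1b, Cdc20, Kif11, Ttk, Cenpe and Cenpf. DESeq2 called 4 of them (Bub1b, Cdc20, Ttk and Cenpe) at adjusted p-values from 0.00513 to 0.0271. Cenpf, at 1.94, was at 0.81 without 2i replicate 2. The range ran from Cdk1 at -0.01 to Cenpe, a kinesin of the kinetochore, at 2.19. Their summed level was 23729 and 34563 normalized counts in serum, compared with 12330 and 10527 in 2i, in libraries that were all sorted as G1-phase. Whether cells outside that gate, or a shift within it, had a part in the values of the 10 subunits was not tested. The MCM helicase genes, which license replication origins in G1-phase, had a median of 0.31, from Mcm5 at 0.15 (under 0 with edgeR and DESeq2) to Mcm4 at 0.70, and 0 of 6 had an unadjusted p-value under 0.05.

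**Figure D4:**
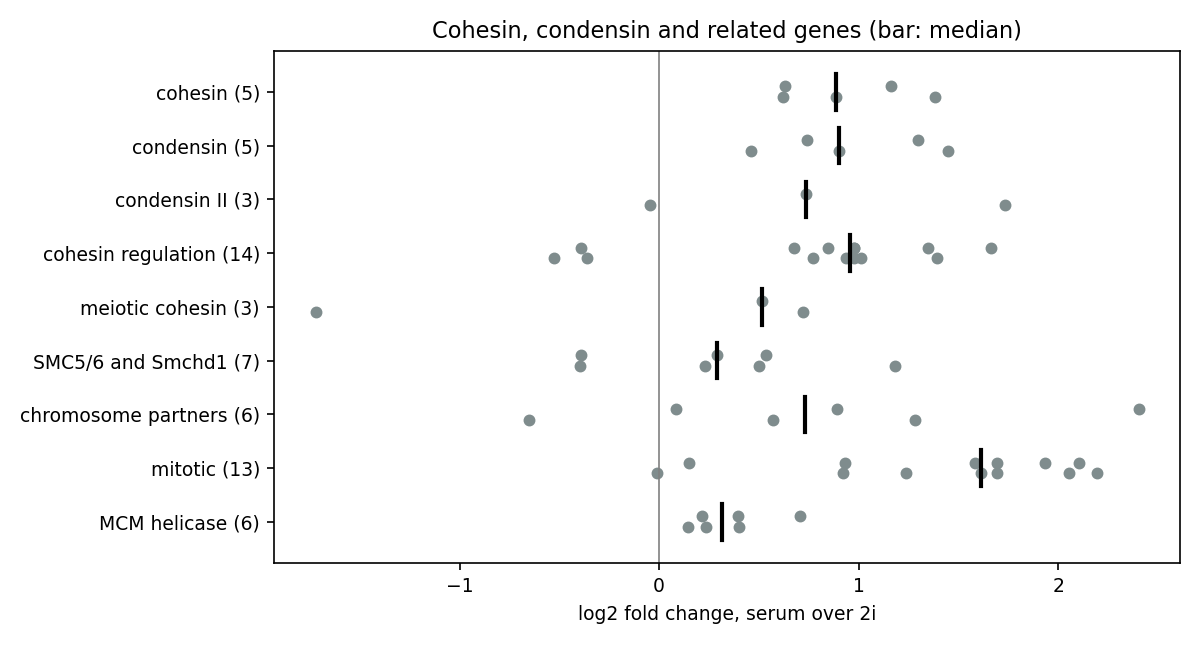
Log2 fold change (serum over 2i) of each tested gene of cohesin, condensin and the related lists, with the number of genes tested in brackets and a bar at the median. Cohesin, condensin and the MCM helicase lie wholly right of 0. The cohesin and condensin medians, 0.89 and 0.90, lie between those of the MCM helicase (0.31) and the mitotic genes (1.61).

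To see which short words of cell cycle genes the promoters hold, RefSeq sequences (build GRCm38.p6, from 250 bases before to 50 after the start) were searched for 7 of the 10 genes, all but Rad21, Stag2 and Smc4. Both strands were searched for E2F words (TTTGGCGC, TTTCCCGC, TTTGCCGC or TTTCGCGC), through which E2F factors regulate S-phase genes, for the cell cycle homology region TTTGAA, found in genes expressed in G2 and mitosis, and for the CCAAT box. The words do not contain each other. An E2F word was in 4 of 7 promoters (Smc1a, Stag1, Ncapd2 and Ncapg), against 2.26% of all 32851 promoters of the same length. TTTGAA was in 3 of 7 (Smc2, Ncapd2 and Ncapg), all condensin, against 17.9%, and CCAAT in 5 of 7, against 37.4%. Promoters of 3 condensin genes with TTTGAA are shown with that of Smc3, which has none of these words and a fold change near that of Smc2. Capitals mark matches to an E2F word or TTTGAA, on either strand, so that TTCAAA and GCGGGAAA are matches on the opposite strand.
Ncapd2, chr6:125191537-125191836, minus strand: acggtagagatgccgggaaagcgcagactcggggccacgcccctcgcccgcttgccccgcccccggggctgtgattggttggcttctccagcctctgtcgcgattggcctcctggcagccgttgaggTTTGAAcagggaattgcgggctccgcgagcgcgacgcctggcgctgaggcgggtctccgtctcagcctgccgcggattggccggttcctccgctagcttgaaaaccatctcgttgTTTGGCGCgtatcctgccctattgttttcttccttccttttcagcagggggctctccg
Ncapg, chr5:45669675-45669974, plus strand: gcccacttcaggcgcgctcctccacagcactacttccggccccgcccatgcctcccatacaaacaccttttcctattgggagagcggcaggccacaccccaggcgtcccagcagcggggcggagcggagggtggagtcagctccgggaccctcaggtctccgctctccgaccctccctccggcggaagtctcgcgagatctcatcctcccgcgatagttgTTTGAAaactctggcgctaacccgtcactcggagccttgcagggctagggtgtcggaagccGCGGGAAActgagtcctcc
Smc2, chr4:52438971-52439270, plus strand: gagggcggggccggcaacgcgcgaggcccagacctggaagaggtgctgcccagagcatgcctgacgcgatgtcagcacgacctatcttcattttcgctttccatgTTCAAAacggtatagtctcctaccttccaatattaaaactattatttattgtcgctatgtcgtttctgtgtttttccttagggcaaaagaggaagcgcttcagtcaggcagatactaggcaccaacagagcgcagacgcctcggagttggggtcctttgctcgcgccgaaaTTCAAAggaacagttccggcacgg
Smc3, chr19:53600146-53600445, plus strand: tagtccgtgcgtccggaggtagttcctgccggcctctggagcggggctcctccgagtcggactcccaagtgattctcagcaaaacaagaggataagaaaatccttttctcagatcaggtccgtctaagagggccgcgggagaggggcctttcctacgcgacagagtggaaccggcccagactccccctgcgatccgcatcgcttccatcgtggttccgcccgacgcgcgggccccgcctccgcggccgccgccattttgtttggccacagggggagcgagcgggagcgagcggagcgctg

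The positions differed between the condensin genes. In Ncapg the TTTGAA word lay 30 bases before the start and the E2F word 31 bases after it. In Ncapd2 the E2F word lay 8 bases before the start and TTTGAA 123 bases before it. Smc2 held TTTGAA 145 bases before and 26 bases after the start and no E2F word. Ncaph, with the smallest fold change, had no match to any of the words, and neither had Smc3, at 2.60-fold. On the log2 scale, the genes with TTTGAA were at 1.45 (Smc2), 1.30 (Ncapg) and 0.74 (Ncapd2). Those without it were Smc3 at 1.38, Smc1a at 0.63, Stag1 at 0.62 and Ncaph at 0.46. Genes with an E2F word ran from 0.62 (Stag1) to 1.30 (Ncapg). A link between the words and the fold changes was not tested. A match is a description of the letters and not a binding site, and no match says only that these letters are not in this window.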

How the data were processed

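Cells were sorted, and ribosomal RNA-depleted total RNA was sequenced by the authors, aligned to mm9 with Bowtie and quantified with MMSeq, which divides reads among transcripts. The deposited values are a signal: counts per gene scaled by DESeq2 size factors (normalized counts). All values (100%, within 0.1 of a read) came out as whole reads, 387 to 8490 per subunit and library, with a counting error of at most 5.08%. No sample columns were left out (0). Gene symbols and lengths came from GENCODE annotation of the same build, which held 14462 of the 14533 genes.

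The main test was limma 3.58.1 (R 4.3.3, trend) on log2(normalized count + 1), a scale that understates changes of low genes, for 13005 genes with a mean of at least 50 in either condition, adjusted by Benjamini-Hochberg. A call needed an adjusted p-value under 0.05 and 2-fold. An exact two-sided permutation test of 2 libraries against 2 cannot go below 0.333. Alternatives were other pseudocounts, filters and scalings, leaving out libraries, a replicate block, edgeR 4.0.16 and DESeq2 1.42.0 on whole reads, protein-coding genes alone, and a correction for GC content and length (mgcv 1.9.3, 11818 genes). The fit was tested on simulated data. Those had independent genes and no GC, length or replicate effects, so the simulation does not cover such effects in these libraries.

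The 10 genes, the lists and the tests were chosen with earlier results of these data known. Named were the 10 genes and, of each related list but not of the marker lists, the highest, the lowest and every gene at an unadjusted p-value under 0.05. Lcorl was named for its overlap, and markers of primitive endoderm and fibroblasts for their presence or level. Counts of subunits past a fold or an unadjusted p-value under each setting were added after seeing the data.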

Additional observations from a re-analysis of the deposited data

How the results depend on the processing

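Over 18 alternatives, each of the 10 subunits kept a log2 fold change above 0 and 0 were called, so that the direction was the same throughout. Only the replicate block (44) and DESeq2 (77) called any gene higher in serum. Under the other settings the lack of calls is thus not particular to the subunits. Leaving out 1 library at a time leaves an arm with a lone sample, assumed to vary like the other group. Over those fits the cohesin median ran from 0.68 to 0.97, the condensin median from 0.87 to 1.29 and the number of subunits above 2-fold from 1 to 5; single genes reached 0.09 (Ncaph, without 2i replicate 2) and 0.21 (Stag1, without 2i replicate 1). The cohesin median was 0.77 with upper quartile scaling, 0.73 with quantile normalization and 0.35 with the correction for GC content and length, also with the block, and 0 subunits were then above 2-fold under both corrections. With the replicate number as a block, 0 subunits were called and 4 had an unadjusted p-value under 0.05 (lowest adjusted p-value in limma 0.243, Smc2). The share of all genes at that unadjusted cutoff with the block was not counted, so the 4 have no background here. Across genes, the difference between serum replicates and that between 2i replicates had r = 0.480, but 2 pairs are too few to show that equal numbers mark paired samples.

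All genes called higher in serum (0) became 44 with the block and 77 with DESeq2. Those higher in 2i (2) became 159 with the block, 176 with DESeq2, 4 at a mean of at least 200, 1 without trend, and 0 with edgeR, protein-coding genes alone, either correction or any library left out (0 to 0). The median of all genes was -0.019 without a filter, -0.0089 with TMM, -0.12 with upper quartile scaling, -0.073 with edgeR and -0.038 with DESeq2. Genes of the related lists were called with the block too (Mki67, Ttk and Cenpe). With 1 library left out, Ncaph2 ran from -0.62 to 0.52 (0.15 without serum replicate 2, and 0.12 with either correction), Ndnl2 from -1.47 to 0.67, Cdk1 from -0.61 to 0.59 (0.15 without serum replicate 1) and Mcm5 from -0.54 to 0.83 (-0.034 with edgeR, -0.0096 with DESeq2). Without 2i replicate 2, Espl1 was at 0.68 and Plk1 at 1.49, and without serum replicate 2 Kif11 was at 0.96. The meiotic cohesin median was -0.60 at a mean of at least 200, where fewer genes were tested, and the MCM median -0.12 without 2i replicate 1. The Stag1 share, serum minus 2i, was -4.37 percentage points, ran from -10.7 to 2.00 with 1 library left out, reaching 2.00 when serum replicate 1 and 1.61 when 2i replicate 2 was omitted. The causes were not tested.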
